A study of Mus musculus with 6 samples.

Results

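The levels of 10 transcription factors that mark the naive state of mouse embryonic stem (ES) cells were read from arrays of cells depleted of Lin28a. The genes were Nanog, Tbx3, Klf2, Klf4, Klf5, Esrrb, Tfcp2l1, Zfp42, Prdm14 and Nr5a2. They were taken by symbol, as the rows of the value table annotated with 1 of these symbols alone. All 10 had such a row, 1 row each, among 19946 genes with a row of their own, and 0 rows named a member together with another gene. The 6 Affymetrix arrays hold A3-1 mouse ES cells in 3 groups of 2. The siLin28a cells received an siRNA against Lin28a and the siGFP cells a control siRNA against green fluorescent protein, which mouse cells do not encode, each for 48 h, and the untreated cells received none. All 3 groups were grown in medium with fetal bovine serum and LIF, the cytokine that holds mouse ES cells in self-renewal. Each siRNA group rests on 1 duplex in 1 cell line, and a second duplex against Lin28a was not analysed here.

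The naive state is the culture counterpart of the preimplantation epiblast. These factors bind one another's regulatory regions and, with Pou5f1 and Sox2, keep the genome poised for any embryonic lineage. LIF acts through STAT3 on Klf4 and Tfcp2l1, Wnt signalling relieves Tcf7l1 repression of Esrrb and Klf2, and FGF-ERK signalling pushes the cells towards the primed state, which resembles the postimplantation epiblast. LIN28A is an RNA-binding protein of ES cells that keeps let-7 microRNA precursors from being processed and also binds many mRNAs.

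The duplex used against Lin28a is shown because every comparison with siLin28a rests on this 1 reagent. Its strands are complementary to each other, and the deoxythymidine overhangs are left out.
siLin28a first strand: gcagaagcgaagauccaaa
siLin28a second strand: uuuggaucuucgcuucugc

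The target transcript followed the labels. Lin28a was at 7.4 in each siLin28a array, at 9.1 and 9.4 with siGFP and at 9.1 and 9.4 in untreated cells (log2 expression, as are all levels here), a log2 fold change of −1.85 against siGFP (SE 0.16, n = 2 per group). The defining ES cell genes Pou5f1 and Sox2 were between 11 and 11.5 in every array. The median of all 35556 rows was 5.2 or 5.3 in each array, and the upper quartile was 7.0 and 7.1 with siLin28a and 7.2 in each of the other 4. Among rows as bright as the members, with a mean between 7.13 and 10.9, the median log2 fold change against siGFP was −0.10, so bright rows as a whole were slightly lower with siLin28a. Fold changes and their standard errors come from limma on all 6 arrays, with p-values adjusted over 23410 rows.

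The plot of member levels by array shows all 6 measurements of each factor.

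**Figure D1:**
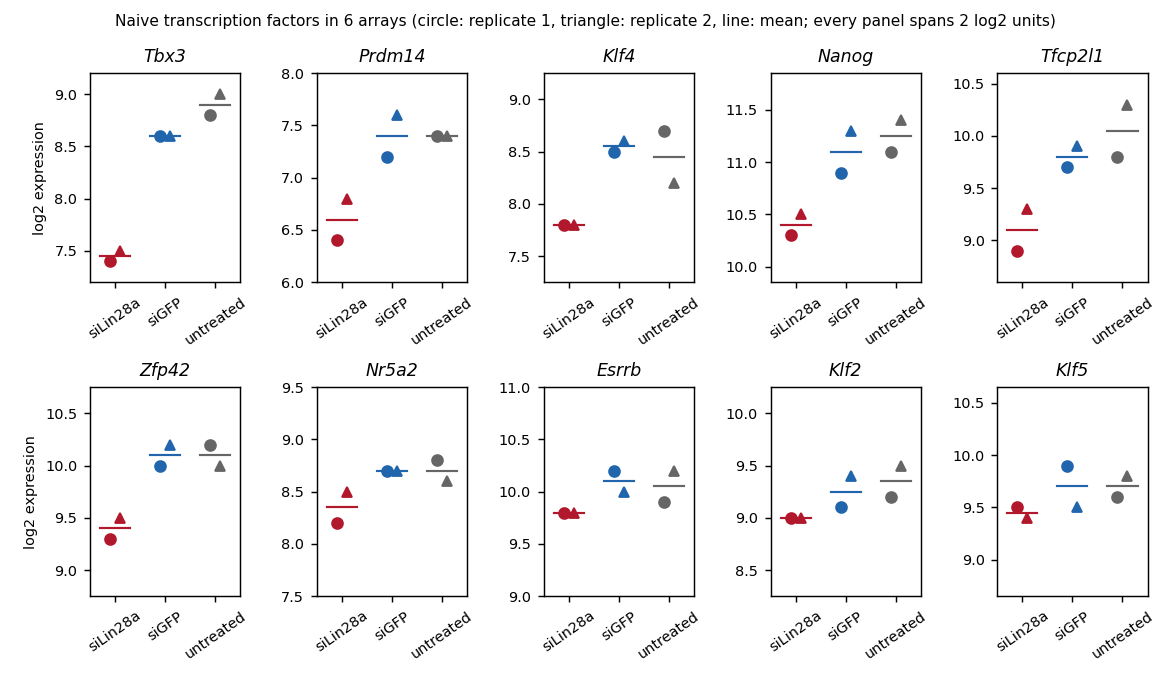
Log2 expression (vertical axis, 2 units in each panel) of each naive transcription factor in the siLin28a, siGFP and untreated arrays, ordered by the log2 fold change against siGFP. Points are arrays, with circles for replicate 1 and triangles for replicate 2, and lines are group means. The siLin28a points lie below all other points for every factor except Klf5, where 9.5 occurs in siLin28a replicate 1 and in siGFP replicate 2.

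All 10 factors had a lower mean in siLin28a cells than in siGFP cells, by between 0.25 and 1.15 on the log2 scale, with a median log2 fold change of −0.70. The 10 were chosen with earlier results of these data known, so the shares of other rows given beside them only describe. Over all 23410 tested rows the median was 0.00, and 11605 rows, or 49.6%, were lower. Of the 6343 rows as bright as the members 68.3% were lower, and of all rows 61.7% were lower once each array was shifted to a common median. For 9 of the 10 factors both siLin28a arrays were below both siGFP arrays, and this held for 11.8% of all rows and for 16.7% of rows as bright as the members. None of the 10 passed an adjusted p of 0.05 by limma, nor did any row at all, 0% of 23410. The adjusted p was 0.723 for Tbx3 and 0.953 for each of the other 9. Lin28a itself, at a log2 fold change of −1.85, did not pass either, with an adjusted p of 0.512 by limma. Because the arrays measured RNA from whole cultures, fewer cells in the naive state and less of these transcripts per cell cannot be told apart.

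Tbx3, a T-box repressor and activator that sustains self-renewal and is induced by LIF in mouse ES cells, had the largest difference of the 10. It was at 7.4 and 7.5 with siLin28a, 8.6 in each siGFP array, and 8.8 and 9.0 in untreated cells. The gap between the siLin28a and siGFP values, at least 1.1, was larger than any gap within a group, which was at most 0.2. Its log2 fold change was −1.15 against siGFP (SE 0.13, 95% interval −1.46 to −0.84) and −1.45 against untreated cells (SE 0.13), which is 2.22-fold and 2.73-fold lower. Only 4 other rows of the 23410, Lin28a among them, had a lower log2 fold change against siGFP, and 0 others had the same one. Tbx3 also had the lowest value of the 10 between siGFP and untreated cells, −0.30 (SE 0.13), with a 95% interval of −0.61 to 0.01 that included 0. It was the 1 factor of 10 whose siGFP arrays were both below both untreated arrays, which held for 8.46% of all rows.

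Prdm14, a PR-domain zinc finger protein that represses de novo DNA methyltransferases and FGF signalling in ES cells, was at 6.4 and 6.8 with siLin28a, 7.2 and 7.6 with siGFP, and 7.4 in each untreated array. No siLin28a value reached the lowest value of another group. The log2 fold change was −0.80 against siGFP (SE 0.19, 95% interval −1.27 to −0.33) and the same against untreated cells. The 2 siLin28a arrays differed from each other by 0.4, and so did the 2 siGFP arrays.

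Nanog, the homeodomain factor whose level sets how firmly ES cells hold the naive state, was at 10.3 and 10.5 with siLin28a, 10.9 and 11.3 with siGFP, and 11.1 and 11.4 in untreated cells. Both siLin28a arrays were below the other 4. Its log2 fold change was −0.70 against siGFP (SE 0.19, 95% interval −1.16 to −0.24) and −0.85 against untreated cells (SE 0.19).

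Zfp42, also called Rex1, is a zinc finger gene used as a reporter of the naive state and is itself not needed for it. It was at 9.3 and 9.5 with siLin28a, 10 and 10.2 with siGFP, and 10.2 and 10 in untreated cells. The siGFP and untreated values were the same pair, and both siLin28a values were below them. The log2 fold change was −0.70 against each of the other groups (SE 0.15, 95% interval −1.06 to −0.34).

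Tfcp2l1, a CP2-family factor and direct STAT3 target, was at 8.9 and 9.3 with siLin28a, 9.7 and 9.9 with siGFP, and 9.8 and 10.3 in untreated cells. The untreated arrays differed by 0.5, as they did for Klf4, and no siLin28a value overlapped with the others. Its log2 fold change was −0.70 against siGFP (SE 0.22, 95% interval −1.23 to −0.17) and −0.95 against untreated cells (SE 0.22).

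The 3 Krüppel-like factors, zinc finger proteins that share many binding sites and can stand in for one another in ES cells, had unlike values. Klf4, which responds directly to LIF and STAT3, was at 7.8 in each siLin28a array, 8.5 and 8.6 with siGFP, and 8.7 and 8.2 in untreated cells. Its log2 fold change was −0.75 against siGFP (SE 0.18, 95% interval −1.19 to −0.31) and −0.65 against untreated cells (SE 0.18), the second of which was −0.40 without untreated replicate 1. Klf2, which is sustained by inhibition of FGF-ERK signalling, was at 9.0 in each siLin28a array, 9.1 and 9.4 with siGFP, and 9.2 and 9.5 in untreated cells. Its siLin28a values were the lowest of the 6, but by no more than 0.1 below the nearest array. The log2 fold change was −0.25 against siGFP (SE 0.16, 95% interval −0.64 to 0.14), and −0.40 and −0.10 without siGFP replicate 1 and 2. Klf5, which restrains differentiation towards mesoderm, was at 9.5 and 9.4 with siLin28a, 9.9 and 9.5 with siGFP, and 9.6 and 9.8 in untreated cells. It was the factor whose siLin28a and siGFP values met, with a log2 fold change of −0.25 (SE 0.17, 95% interval −0.66 to 0.16) that was −0.05 without siGFP replicate 1 and −0.45 without siGFP replicate 2. The intervals of all 3 Krüppel-like factors overlap, and the difference between their changes was not tested.

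The 2 orphan nuclear receptors had log2 fold changes against siGFP between that of Klf4 and those of Klf2 and Klf5, and these differences were not tested. Esrrb, which binds together with Nanog and Pou5f1 and is a target of Wnt signalling, was at 9.8 in each siLin28a array, 10.2 and 10 with siGFP, and 9.9 and 10.2 in untreated cells. Both siLin28a values were the lowest of the 6, by 0.1. The log2 fold change was −0.30 against siGFP (SE 0.15, 95% interval −0.66 to 0.06) and −0.25 against untreated cells (SE 0.15), and against untreated cells it was −0.40 and −0.10 without untreated replicate 1 and 2. Nr5a2, which binds the Pou5f1 promoter region, was at 8.2 and 8.5 with siLin28a, 8.7 in each siGFP array, and 8.8 and 8.6 in untreated cells. No overlap was seen here either, with a log2 fold change of −0.35 against both groups (SE 0.15, 95% interval −0.71 to 0.01) that was −0.20 without siLin28a replicate 1.

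The 10 values lay in 2 ranges with none between them, and the split at −0.70 was made after the values were seen. Tbx3, Prdm14, Klf4, Nanog, Tfcp2l1 and Zfp42 lay between −1.15 and −0.70, where 0.252% of all rows had a log2 fold change of −0.70 or below. Nr5a2, Esrrb, Klf2 and Klf5 lay between −0.35 and −0.25. The same 6 factors had a 95% interval wholly below 0 against siGFP, which held for 2.26% of all rows. These intervals are not adjusted for the number of rows. With a further quantile normalization of the arrays the median over the 10 was −0.60 and all 10 were still lower. The number lower was 10 under each of the 15 other settings tried, but not all of these could change it. Changes to the prior, to the rows kept or to the untreated arrays leave these fold changes as they are, as does the replicate block.

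**Figure D2:**
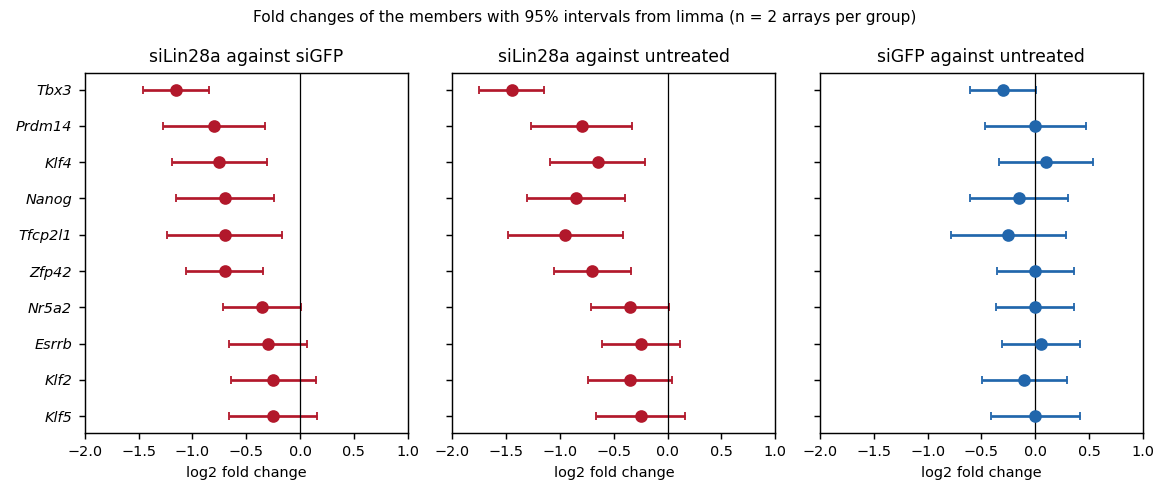
Log2 fold change (horizontal axis) of each factor in siLin28a against siGFP, siLin28a against untreated and siGFP against untreated cells, with 95% intervals from limma as bars. The 2 panels with siLin28a hold points between −1.45 and −0.25, and the siGFP panel holds points between −0.30 and 0.10. The panels share arrays, so they are not independent of one another.

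Set against untreated cells, which share the siLin28a arrays with the first comparison, all 10 factors were again lower, with a median log2 fold change of −0.68. Lower values were found for 46.7% of all rows and 63.8% of rows as bright as the members, whose median was −0.10. All 10 had both siLin28a arrays below both untreated arrays, against 12.6% of all rows and 19.4% of rows as bright as the members. The interval was below 0 for 6 of them, the same 6 factors, against 3.55% of all rows. The adjusted p by limma was 0.171 for Tbx3, with 0% of rows called. It was between 0.558 and 0.848 for the other 9. Values for Klf2 and Klf5 were −0.35 and −0.25, and −0.20 and −0.15 without untreated replicate 2.

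The comparison of siLin28a with the mean of the siGFP and untreated groups put 4 arrays on the other side. For 9 of the 10 factors both siLin28a arrays were below all 4 others, as were 5.03% of all rows and 8.06% of rows as bright as the members. The log2 fold change was −1.30 for Tbx3 (SE 0.11, adjusted p 0.169 by limma, 0% of rows called). Its adjusted p was 0.0466 after cyclic loess, 0.0155 with a robust prior and 0.0378 with the siGFP and untreated arrays pooled as 1 group, and no other member passed in any of the settings tried.

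Between siGFP and untreated cells 4 of the 10 were lower, 4 equal and 2 higher, with a median log2 fold change of 0.00 and a range of −0.30 to 0.10. Both siGFP arrays were below both untreated arrays for 1 of the 10, Tbx3, against 8.46% of all rows. No count is given with 1 array left out, because 1 array against 2 falls without overlap more easily. An interval below 0 was found for 0 of the 10 and for 1.33% of all rows, and 0% of rows had an adjusted p under 0.05 by limma. Prdm14, Zfp42, Nr5a2 and Klf5 had log2 fold changes of 0.00, Esrrb 0.05, Klf4 0.10, Klf2 −0.10, Nanog −0.15 and Tfcp2l1 −0.25. With 2 arrays per group the 95% intervals were wide. The widest, of Tfcp2l1, reached from −0.78 to 0.28, so a difference anywhere in that range is not excluded for this factor. Nanog was 0.05 without siGFP replicate 1, Klf2 0.05 without siGFP replicate 1 or untreated replicate 2, Klf4 −0.15 without untreated replicate 2, and Esrrb −0.05 and −0.10 without siGFP replicate 1 and untreated replicate 1. Tfcp2l1 was −0.50 and 0.00 without untreated replicate 1 and 2.

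**Figure D3:**
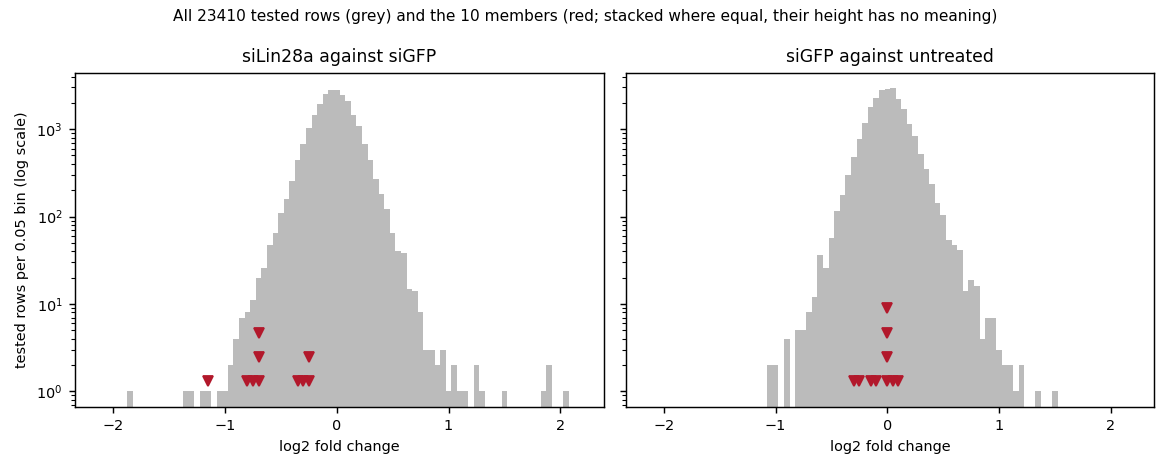
Number of tested rows (vertical axis, log scale) by log2 fold change in siLin28a against siGFP (left) and in siGFP against untreated cells (right), in grey, with the 10 factors as red marks. The marks lie between −1.15 and −0.25 on the left and between −0.30 and 0.10 on the right.

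Genes that act beside these factors were read from lists chosen with earlier results of these data known. Of 15 other naive-state genes 14 were lower against siGFP and 1 higher, with a median log2 fold change of −0.30 and 0 called. Tet2, a DNA demethylase, was at 6.3 and 6.7 with siLin28a and 7.3 and 7.1 with siGFP, which gives a log2 fold change of −0.70 (SE 0.20). Jam2, a junctional adhesion protein, had −0.65 (SE 0.13). All 6 core factors were lower, with a median of −0.20 and 0 called, and the difference between these lists was not tested. Of rows as bright as the members 68.3% were lower, with a median of −0.10. In that range were 9 of the other naive-state genes and 3 of the core factors, all lower. Sall4, a zinc finger partner of Pou5f1, had −0.25 (SE 0.14), and −0.15 without siLin28a replicate 2. The chromatin-binding Dppa2 had −0.20 (SE 0.23) in its brighter row and −0.30 in its other row, and the brighter row had 0.05 and −0.45 without siLin28a replicate 1 and 2, and −0.35 and −0.05 without siGFP replicate 1 and 2. The median of the core factors was −0.03 without siLin28a replicate 1, −0.33 without siGFP replicate 1 and −0.08 without siGFP replicate 2.

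Primed epiblast genes lay on the other side of 0. Of the 12 measured, 11 were higher against siGFP and 1 equal, with a median log2 fold change of 0.53 and 0 called. Higher values were found for 8969 of all 23410 rows and for 1299 of the 6343 rows as bright as the members. The 6 primed genes in that range were all higher. Zic2, a zinc finger factor of primed cells, was at 8.5 and 8.1 with siLin28a and at 7.4 and 6.7 with siGFP, which gives a log2 fold change of 1.25 (SE 0.26). Dnmt3b, a de novo DNA methyltransferase repressed by PRDM14 in mouse ES cells, was at 9.5 and 9.4 with siLin28a, 8.4 and 8.2 with siGFP, and 8.0 and 8.1 in untreated cells. Its log2 fold change was 1.15 (SE 0.13), with no overlap between siLin28a and the other 4 arrays. The share of all rows that were higher without overlap was not taken. Against untreated cells 8 of the 12 primed genes were higher, 3 lower and 1 equal, with a median of 0.28, and 9806 of all 23410 rows were higher. Between siGFP and untreated cells 8 of the 12 were lower and 4 higher, with a median of −0.15. Part of the difference against siGFP therefore goes with lower siGFP values.

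Transcripts of genes in the signalling routes that feed the naive factors were read from 3 lists. The activity of these routes was not measured by the arrays. All 5 genes of the LIF-STAT3 route were lower against siGFP, with a median log2 fold change of −0.15 and 0 called, where 68.3% of rows as bright as the members were lower with a median of −0.10. The LIF co-receptor Il6st had −0.15 (SE 0.19) and the STAT3 feedback inhibitor Socs3 −0.25 (SE 0.26) in its brighter row, −0.10 in its other row. Il6st was 0.10 without siGFP replicate 1 and −0.40 without siGFP replicate 2, and Socs3 was 0.00 and −0.50 without siLin28a replicate 1 and 2, and −0.45 and −0.05 without siGFP replicate 1 and 2. The median of this route was 0.00 without siLin28a replicate 1 and −0.25 without siLin28a replicate 2. In the Wnt list 5 of 6 genes were lower and the nuclear effector Lef1, which also stands in the primed list, was higher at 0.95 (SE 0.15). The list's median was −0.10, and −0.05, −0.20 and 0.00 without siLin28a replicate 1, siLin28a replicate 2 and siGFP replicate 1. The scaffold Apc had −0.15 (SE 0.21), and 0.05 and −0.35 without siGFP replicate 1 and 2. With quantile normalization the medians were nearer to 0, at −0.10 for the core factors, −0.05 for the LIF-STAT3 route and −0.03 for the Wnt list.

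The FGF-ERK list held 9 measured genes, 8 of them as bright as the members, where 68.3% of rows were lower against siGFP. Of the 9 genes 6 were lower and 3 higher, with a median of −0.05 and 0 called. This median was 0.05, −0.15, −0.25 and 0.00 without siLin28a replicate 1, siLin28a replicate 2, siGFP replicate 1 and siGFP replicate 2, and its sign also turned under 2 other scalings, at 0.03 with cyclic loess and 0.05 with quantile normalization. The ERK-induced factor Etv5 had −0.25 (SE 0.13) in its brighter row and 0.10 in its other row. The adaptor Grb2 had −0.20 (SE 0.14), and −0.35 and −0.05 without siGFP replicate 1 and 2.

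**Figure D4:**
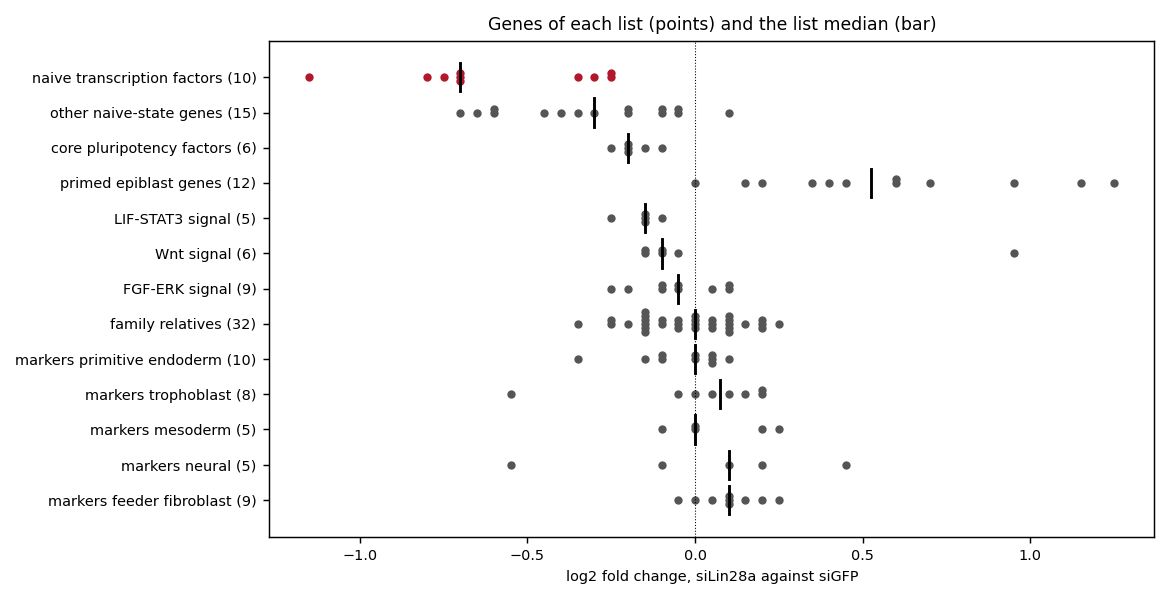
Log2 fold change in siLin28a against siGFP (horizontal axis) of every measured gene of each list (points, numbers of genes in brackets), with the list median as a bar. The 10 naive factors, in red, have a median of −0.70, the primed genes one of 0.53, and the family relatives one of 0.00.

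Relatives of the 10 factors in the same protein families were read as a list. Of 32 measured Krüppel-like, T-box, ERR, NR5A, CP2 and Grainyhead-like, PRDM and YY1 genes, 15 were lower against siGFP, 13 higher and 4 equal, with a median log2 fold change of 0.00 and 0 called. That median was −0.05 once each array was shifted to a common median, and 0.03 after a further quantile normalization. Most relatives were dimmer than the members. Of the 11 relatives as bright as the members 9 were lower and 2 higher, with a median of −0.15. The largest value in size belonged to Klf8, at 7.1 in each siLin28a array and 7.5 and 7.4 with siGFP, −0.35 (SE 0.11). Grhl3, a Grainyhead-like epithelial factor, had −0.25 (SE 0.15), and −0.10 and −0.40 without siGFP replicate 1 and 2. Against untreated cells Grhl3 was 0.40.

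Markers of other cell types were read beside the naive factors. The mean level over the 10 primitive endoderm markers was 5.56 and 5.50 with siLin28a, against 5.60 and 5.55 with siGFP and 5.49 and 5.56 in untreated cells. Of these 10, 4 were lower, 4 higher and 2 equal against siGFP. The mean over the 8 trophoblast markers was 5.61 and 5.62 with siLin28a, and between 5.50 and 5.64 in the other 4 arrays. Among them Tfap2c, a factor also present in ES cells, was lower at −0.55 (SE 0.15) and Elf5 higher at 0.20 (SE 0.20), which was 0.35 and 0.05 without siGFP replicate 1 and 2. The 5 mesoderm markers averaged 5.16 and 5.14 with siLin28a and between 4.96 and 5.12 in the other arrays, with Gsc at 0.25 (SE 0.14; 0.10 and 0.40 without siGFP replicate 1 and 2) and Mesp1 at 0.20 (SE 0.11). For this list 1 of 5 was lower, 2 higher and 2 equal.

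The 5 neural markers averaged 5.46 in each siLin28a array and between 5.42 and 5.58 in the other 4, with 2 lower and 3 higher. The intermediate filament gene Nes had 0.45 (SE 0.21) and the neuronal tubulin Tubb3 −0.55 (SE 0.19; −0.35 without siGFP replicate 2). The 9 fibroblast markers, for feeder cells that ES cultures can hold, averaged 4.84 and 4.77 with siLin28a and between 4.66 and 4.88 elsewhere, with 7 higher, 1 lower and 1 equal. Col3a1 had 0.25 (SE 0.15; 0.10 and 0.40 without siLin28a replicate 1 and 2) and Prrx1 0.20 (SE 0.26). Leaving out siGFP replicate 1 or 2 gave Prrx1 −0.05 or 0.45, and leaving out siLin28a replicate 1 or 2 gave it 0.35 or 0.05. In the primitive endoderm list Lama1 had −0.35 (SE 0.21; −0.20 without siLin28a replicate 2, −0.15 and −0.55 without siGFP replicate 1 and 2) and Col4a1 −0.15 (SE 0.12). Elf5, Nes and Prrx1 lay between 3.7 and 4.7 in every array, below the median of all rows in each. The share of rows as dim as these that were higher was not taken. None of these marker genes was called, and their part in the values of the naive factors was not tested.

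The mean profile of the 10 factors, each centred on its own mean over the 6 arrays, was −0.49 and −0.34 with siLin28a, 0.13 and 0.23 with siGFP, and 0.20 and 0.29 in untreated cells. Zfp42 lay nearest to it, with a root mean square difference of 0.10, and Tbx3, whose siLin28a values lay further below its own mean, lay farthest at 0.33. Klf5 had the lowest correlation with it, a Pearson r of 0.59 over the 6 arrays, and Tbx3 the highest at 0.98. Members form part of this mean, so these values only describe how alike they were.

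Among 10211 other rows with 1 symbol and a group mean of at least 6, the 5 nearest to this profile were Itga9, Ptbp3, Lrpap1, Mitf and Rpe. Itga9, an integrin subunit, was at 6.6 and 6.7 with siLin28a, 7.1 and 7.3 with siGFP, and 7.2 and 7.3 in untreated cells, with a root mean square difference of 0.04. Ptbp3, an RNA-binding splicing regulator, had one of 0.05, and Lrpap1, a chaperone of LDL receptor family proteins, Mitf, a basic helix-loop-helix factor, and Rpe, an enzyme of the pentose phosphate pathway, had 0.06, 0.06 and 0.07. Their log2 fold changes against siGFP lay between −0.60 and −0.50. They were picked from all these rows for this likeness over 6 arrays, which share their 3 groups, and the values are a description.

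**Figure D5:**
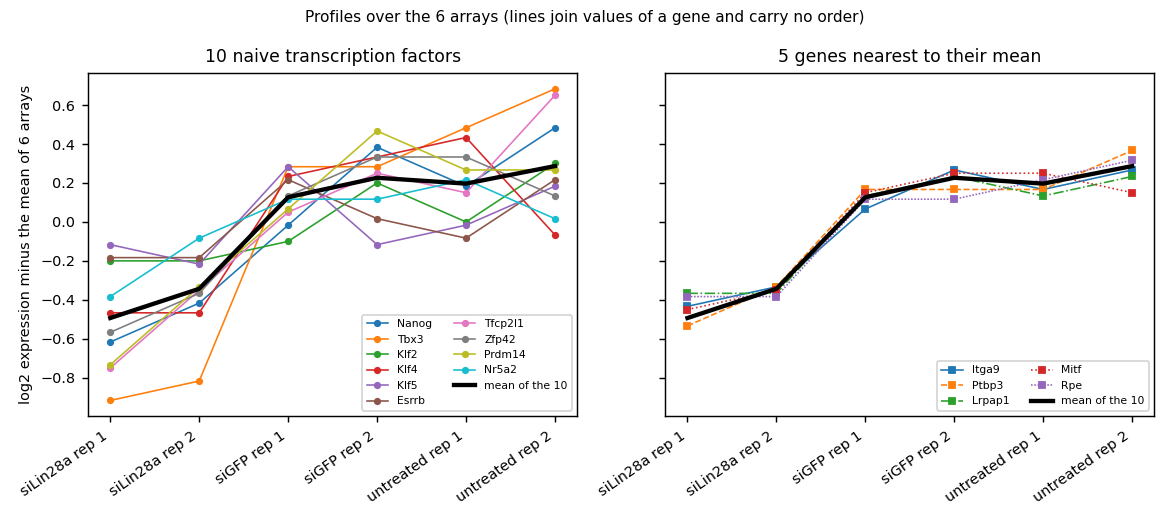
Log2 expression minus the mean of the 6 arrays (vertical axis) for the 10 factors (left) and the 5 genes nearest to their mean (right), by array. The black line is the mean of the 10 factors, at −0.49 and −0.34 with siLin28a and between 0.13 and 0.29 in the other 4.

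Promoter sequences from RefSeq (mouse build GRCm38.p6, 250 bases before to 50 after a start site) were at hand for 7 of the 10 genes, in 10 windows, of which the 2 of Nanog overlap. No window was given for Tbx3, Prdm14 and Klf5. The box bound by Krüppel-like factors, searched as GGGNGTGG on both strands, was found in windows of Nanog, Zfp42, Tfcp2l1 and Nr5a2, 4 of the 7 genes. It was in 5 of the 10 windows, counting both windows of Nanog, and in 17.6% of all 32851 windows. The octamer bound by Pou5f1, searched as ATGCAAAT, was found in 1 window, of Zfp42, and in 1.74% of all windows. The STAT palindrome, searched as TTCNNNGAA, was found in 1 window, of Esrrb, and in 8.30% of all. The ERR and NR5A element TCAAGGTCA and the T-box element AGGTGTGA were in 0 of the 10 windows, and in 0.423% and 1.28% of all. None of these searched motifs overlapped another in the 10 windows.

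For 3 genes 1 window each is printed, with the matches in capitals. They were picked for having both a log2 fold change of −0.70 against siGFP and a Krüppel-like box. Of the other genes with windows, Klf4 at −0.75, Esrrb at −0.30 and Klf2 at −0.25 had no box, and Nr5a2 at −0.35 had one. A link between the box and the fold change was not tested. Nanog lies on the plus strand at chr6:122707239-122707538, with boxes whose first bases are at −10 and 25 from the start site. Zfp42 lies on the minus strand at chr8:43306960-43307259, with the octamer at −186 and the box at −75. Tfcp2l1 lies on the plus strand at chr1:118627695-118627994, with boxes at −61 and −47. The matches in Zfp42 and Tfcp2l1 read as the reverse complement of the searched letters. Whether any factor was bound at these matches was not measured by the arrays.
Nanog: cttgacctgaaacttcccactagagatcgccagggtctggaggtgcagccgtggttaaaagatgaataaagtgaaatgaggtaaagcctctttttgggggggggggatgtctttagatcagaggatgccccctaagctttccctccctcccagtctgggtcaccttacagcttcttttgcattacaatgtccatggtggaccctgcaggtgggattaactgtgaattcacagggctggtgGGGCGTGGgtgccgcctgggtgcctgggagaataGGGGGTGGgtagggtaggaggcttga
Zfp42: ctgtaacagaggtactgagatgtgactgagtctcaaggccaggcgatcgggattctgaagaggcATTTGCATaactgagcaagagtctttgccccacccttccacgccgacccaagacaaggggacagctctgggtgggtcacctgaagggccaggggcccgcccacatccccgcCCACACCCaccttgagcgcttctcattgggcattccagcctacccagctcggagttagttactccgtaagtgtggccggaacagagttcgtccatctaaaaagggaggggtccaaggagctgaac
Tfcp2l1: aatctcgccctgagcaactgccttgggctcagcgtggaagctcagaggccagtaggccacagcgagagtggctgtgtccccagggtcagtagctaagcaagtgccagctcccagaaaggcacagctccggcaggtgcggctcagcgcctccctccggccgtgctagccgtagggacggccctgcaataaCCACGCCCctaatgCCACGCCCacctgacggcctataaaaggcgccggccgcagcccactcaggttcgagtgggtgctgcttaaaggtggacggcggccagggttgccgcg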

How the data were processed

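RNA of A3-1 cells was measured on 6 Affymetrix arrays, 2 per group. The deposited values are log2 intensities that the authors made by RMA in Affymetrix Expression Console, per the submitters' processing notes, and come in steps of 0.1. Not given in the sources used here were software versions and the build. The rounding limits precision, as does the number of arrays. Of 35556 rows, 23410 named at least 1 gene and were tested, 21797 of these named 1 symbol, 1613 several, and 12146 rows named none.

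A linear model with 3 group means was fitted to the 6 arrays with limma 3.58.1 in R 4.3.3 (lmFit, eBayes), with Benjamini-Hochberg adjustment over 23410 rows, a threshold of 0.05, keeping dim rows. Residual degrees of freedom were 3, with 3.19 from the prior. The script was tested on simulated data. An exact permutation test of 2 arrays against 2 cannot go below 0.333, so none is given. Nothing in the labels tells if replicates were separate cultures. The p-values then cover only how far these arrays differ, and that spread may be technical.

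The members and gene lists were chosen with earlier results of these data known. Named genes are the 10 members, Lin28a, the 2 genes of each other list with the largest difference between siLin28a and siGFP, and the 5 genes nearest to the members' mean profile. A gene with several rows is given by its brightest row. Some genes of the lists are not analysed here. Alternatives covered normalization, prior, dim rows, samples fitted, a replicate block and each array left out. Replicate numbers do not mark a shared culture in the labels.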

Additional observations from a re-analysis of the deposited data

How the results depend on the processing

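With 2 arrays per group and values in steps of 0.1, even the difference of Lin28a, the siRNA target, did not pass the adjusted threshold. Its log2 fold change against siGFP was −1.85, with an adjusted p of 0.512 by limma. A gene that was not called may therefore still differ. The number of rows called by limma was 0 in each comparison. Rows at an unadjusted limma p under 0.05 numbered 949 for siLin28a against siGFP and 825 for siGFP against untreated. They numbered 1508 for siLin28a against untreated and 1385 for siLin28a against both other groups. Without any difference a share of 0.05 of the tested rows would have such a p. The counts for siLin28a against siGFP and siGFP against untreated lay below that share, and the other counts above it. A robust prior called 1 row against siGFP, 7 against untreated and 11 against both. Cyclic loess called 3 against untreated and 4 against both, and fitting only the groups compared called 8 against both. The cause was not tested. Tbx3 was among those called against untreated cells, with an adjusted p of 0.0408 after cyclic loess and 0.0213 with a robust prior.

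The median of the 10 factors with further quantile normalization was −0.60 against siGFP, −0.57 against untreated and −0.60 against both, and with cyclic loess −0.58 against untreated. Leaving out 1 array at a time gave −0.80 to −0.55 against siGFP, −0.73 to −0.55 against untreated, −0.75 to −0.60 against both, and −0.15 to 0.025 for siGFP against untreated. In the last comparison single factors changed sign, with ranges of −0.35 to 0.05 for Nanog, −0.25 to 0.05 for Klf2, −0.10 to 0.20 for Esrrb and −0.15 to 0.35 for Klf4. Against siGFP the ranges crossed 0 for Dppa2 (−0.45 to 0.05), Il6st (−0.40 to 0.10), Apc (−0.35 to 0.05) and Prrx1 (−0.05 to 0.45). All 10 factors stayed lower in each siLin28a comparison under every one of the 15 settings, a count chosen after seeing the data. Settings that change only the prior, the rows kept, the block or arrays outside the comparison could not move these values.

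With the replicate number as a replicate block, 0 rows were called in each comparison, with a smallest adjusted p of 0.719 against siGFP. Deviations of same-numbered arrays from their group means correlated at 0.36 between siLin28a and siGFP. They correlated at −0.04 between siLin28a and untreated, and at 0.15 between siGFP and untreated. Levels of siLin28a and siGFP arrays with the same number correlated at 0.9946 and 0.9950. Within siLin28a and within siGFP the 2 arrays correlated at 0.9941 and 0.9931. The numbers were not taken as pairs because the labels do not mark a shared culture, and a shared replicate effect was not tested. Shifting the arrays to the same median moved the median of all rows to −0.05 against siGFP.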
